A study of Sus scrofa with 12 samples.

Results

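The septum and the left ventricular free wall of pigs with long-term ventricular pacing were compared by RNA microarray. Of the 12 arrays of the series, 6 belong to this comparison by their labels: 3 of septum and 3 of free wall, all from paced animals. The pigs were 13 months old and, per the series description, all female. Paced pigs had complete atrioventricular block made with an ablation catheter and a pacemaker in VDD mode, in which each sensed atrial beat is followed by a paced ventricular one. The ventricular lead was fixed on the right ventricular side of the septum and the atrial lead on the right atrial appendage, and tissue was taken after 6 months at the level of the papillary muscles. The other 6 arrays came from septum and free wall of sham-operated control pigs kept for the same time, whose regions are set beside those of the paced pigs below. Of the 12 pigs enrolled, 6 were paced, and the labels do not say which pigs gave the 3 arrays of a region or which arrays share a pig. No strain is named. The p-values below measure the spread between these arrays.

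As background, a ventricle paced from the right side of the septum is activated out of its normal order: muscle next to the lead contracts early and the opposite free wall late, so that the regions work under different loads. Heart muscle answers load and altered activation by changing ion channels, calcium handling, contractile proteins, metabolism and matrix. The septum also differs from the free wall by its development, by a right as well as a left ventricular face, and by the bundle branches that run in it.

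The ventricular myosin genes fitted the labelled tissue: the ventricular light chain MYL2 read 12.21 to 12.53 and the slow myosin heavy chain MYH7 12.40 to 12.58 on the log2 scale in the 6 paced arrays, near the top of the range. MYL7, usually taken as an atrial light chain, also read high, at 10.68 to 11.56, and whether its probe set also binds another light chain could not be checked. Per-array median signals ran from 4.31 to 4.45 over the 12 arrays. Free wall paced array 2 stood apart. Its score on the first principal component (25.9% of the variance) was -45.3, where the others lay between -19.2 and 22.3. The weight limma gave it was 0.24 against 0.63 to 1.68, and it had the smallest spread of signal (SD 2.01 against 2.05 to 2.12). Results are therefore given with and without it for the main counts and for many of the lists and genes. Values with no such mention use all arrays.

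**Figure D1:**
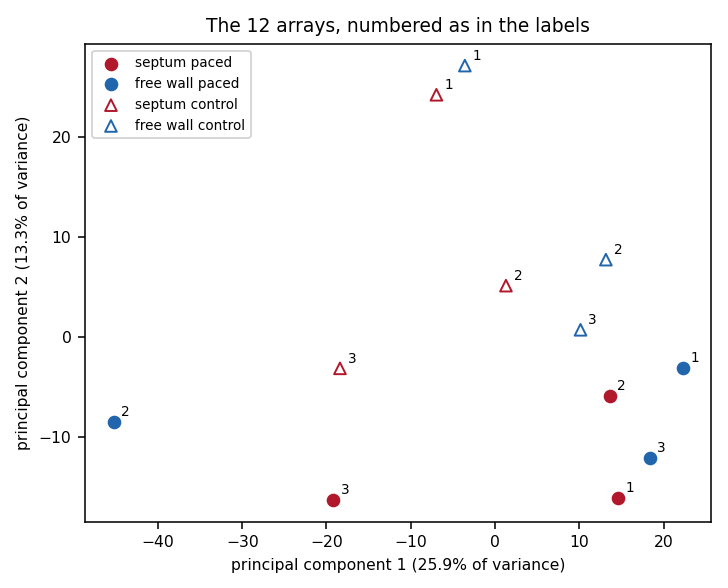
The 12 arrays on the first (horizontal) and second (vertical) principal components of the log2 signals of the probe sets tested, numbered as in the labels; circles are paced and open triangles control arrays, red septum and blue free wall. Free wall paced array 2 lies alone at -45.3 on the first component, and the other 5 paced arrays lie between -19.2 and 22.3 with both regions mixed.

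The question was which genes differ between the early-paced septum and the free wall of the same treatment group. No probe set passed: 0 of 20668 probe sets were called at a limma adjusted p under 0.05 (0% called), and the smallest adjusted p was 0.142. An unadjusted p under 0.05 was reached by 1391 of them (6.73%), 889 higher (4.3%) and 502 lower (2.43%) in septum, where chance gives 1033. Without free wall paced array 2 the count called was again 0, the smallest adjusted p was 0.263, and 2137 (10.3%) had an unadjusted p under 0.05. Without septum paced array 2, 7 probe sets passed, those of NTRK2 and ABCC4 lower, 2 of ECHDC2 and 1 of SYT14 higher, and 2 without a gene name lower in septum. Among the 10007 named genes tested, each by its brightest probe set, 689 (6.89%) had an unadjusted p under 0.05, and 69.7% of these were higher in septum. Without free wall paced array 2 the count was 1004 (10%), of which 55.8% were higher: those higher went from 480 to 560 and those lower from 209 to 444. The genes in common with the same direction numbered 432, which is 62.7% of the first list and 43% of the second.

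When only these 10007 genes were tested, so that p-values were adjusted over fewer features, 4 genes passed (0.04%). The potassium channel gene KCNA5 (2.77-fold) and the cytokine feedback inhibitor SOCS2 (2.33-fold) were higher in septum, both at a limma adjusted p of 0.0430. The ubiquitin ligase gene RNF144B was 2.94-fold higher and the uncharacterised locus LOC100737875 2.19-fold lower, both at an adjusted p of 0.0482. None of the 4 passed that test without free wall paced array 2, where the smallest adjusted p over the genes was 0.0897, for KCNA5. In the test over all probe sets none of the genes named below passed, and the values are given on that footing.

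The largest regional differences of named genes were on the higher side and included genes tied to prolactin and growth hormone signalling. XDH encodes xanthine dehydrogenase, which makes uric acid from purines. It read 8.40, 7.73 and 8.35 in septum and 3.75, 4.95 and 5.37 in free wall, an 11.1-fold difference (log2 3.47, SE 0.89, limma adjusted p = 0.452, with n = 3 in each region here and below). Every septal array was above every free wall array by more than 2 log2 units. PRLR, the prolactin receptor, read 7.26, 7.02 and 7.51 in septum and 3.93, 5.61 and 5.39 in free wall (log2 2.29, SE 0.48, adjusted p = 0.333). CISH and SOCS2 are inhibitors that cytokine and hormone receptors induce through STAT5 and that dampen those receptors. CISH read 8.07, 7.39 and 7.59 in septum against 6.11, 6.29 and 6.52 (log2 1.38, SE 0.37). SOCS2 read 6.20, 5.98 and 5.88 against 4.55, 4.88 and 4.97 (log2 1.22, SE 0.17, adjusted p = 0.142). For these 4 genes, as for all leading genes, the rule of choice required groups that do not overlap. Other genes of this pathway, chosen after their values were seen, did not share the direction: the growth hormone receptor GHR differed by -0.14 (SE 0.15), the kinase JAK2 by -0.37 (SE 0.15) and STAT5A by 0 (SE 0.19).

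**Figure D2:**
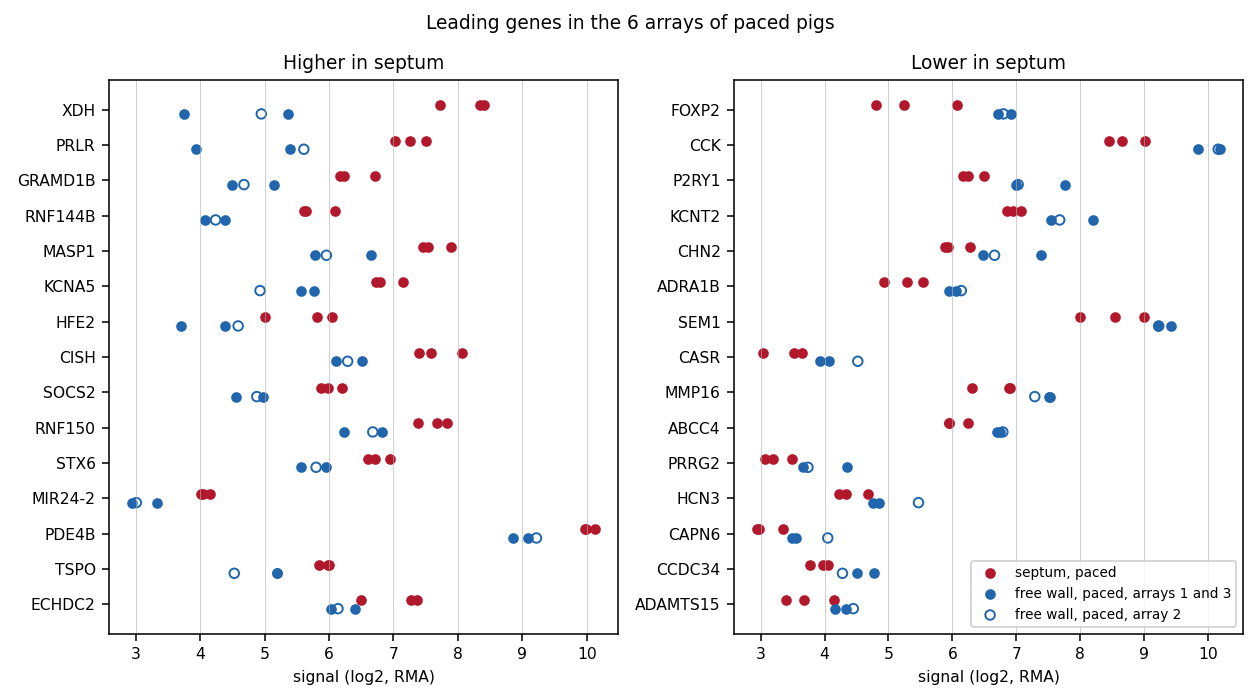
Log2 signal of the 15 leading genes in each direction (rows) in the 6 arrays of paced pigs; red points are the 3 septal arrays, filled blue points free wall arrays 1 and 3, and open blue points free wall array 2. By the rule that chose them the groups do not overlap, and the widest gap is that of XDH, at 7.73 to 8.40 against 3.75 to 5.37.

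KCNA5 encodes the channel of the ultrarapid delayed rectifier potassium current, which shortens the action potential. Its signal was 7.15, 6.73 and 6.79 in septum and 5.57, 4.93 and 5.76 in free wall (log2 1.47, SE 0.20, limma adjusted p = 0.142). Free wall array 2 was the lowest of the 6, and without it the difference was 1.22. RNF144B read 5.65, 5.62 and 6.09 against 4.07, 4.24 and 4.39 (log2 1.55, SE 0.24), a gap wider than the range within either region. GRAMD1B, which moves cholesterol from the plasma membrane to the endoplasmic reticulum, stood at 1.60 (SE 0.32), and MASP1, a protease that starts the lectin pathway of complement, at 1.5 (SE 0.35). HFE2, the gene of hemojuvelin, a coreceptor for bone morphogenetic proteins, stood at 1.39 (SE 0.42). PDE4B, a phosphodiesterase that breaks down cyclic AMP, read 9.97, 9.99 and 10.13 against 8.86, 9.22 and 9.09 (log2 0.97, SE 0.25, adjusted p = 0.454). The ubiquitin ligase relative RNF150, the Golgi syntaxin STX6, the mitochondrial cholesterol-binding protein TSPO and ECHDC2, related to enoyl-CoA hydratases, lay between 0.86 and 1.05. The probe set of the microRNA gene MIR24-2 stood at 0.97 (SE 0.31). Its free wall signals of 2.95 to 3.33 lie near the log2 value of 3 that was the filter on dim probe sets.

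On the lower side the leading genes differed by less: 2 of 15 reached a 2-fold difference, against 10 of 15 on the higher side. FOXP2, a forkhead transcription factor, read 5.25, 6.07 and 4.81 in septum and 6.92, 6.80 and 6.71 in free wall (log2 -1.43, SE 0.36, limma adjusted p = 0.452). The gene of cholecystokinin, a peptide hormone and neurotransmitter, is CCK. It read 9.01, 8.66 and 8.45 against 9.85, 10.16 and 10.19 (log2 -1.36, SE 0.22, adjusted p = 0.142). ABCC4, an exporter of cyclic nucleotides, read 5.95, 6.25 and 5.95 against 6.75, 6.79 and 6.70 (log2 -0.70, SE 0.11, adjusted p = 0.142). Its 3 free wall values lay close together, and by the rule of choice no septal value reached them. The lower genes included 3 receptors: the ADP receptor P2RY1 stood at -0.97 (SE 0.22), the alpha-adrenergic receptor ADRA1B at -0.79 (SE 0.16) and the calcium-sensing receptor CASR at -0.77 (SE 0.19). ADRA1B read 5.54, 5.29 and 4.93 in septum and 5.95, 6.14 and 6.05 in free wall. Channel genes among them were KCNT2, a sodium-activated potassium channel, at -0.85 (SE 0.24), and HCN3, of the pacemaker channel family, at -0.61 (SE 0.19). HCN3 was highest in free wall array 2, at 5.47 against 4.85 and 4.76, and stood at -0.39 without that array. MMP16, a membrane-bound matrix protease, stood at -0.75 (SE 0.20) and ADAMTS15, a secreted one, at -0.57 (SE 0.19). The Rac regulator CHN2, the proteasome subunit SEM1, PRRG2, the calpain relative CAPN6 and CCDC34 lay between -0.81 and -0.58. Septal signals of CASR, PRRG2 and CAPN6 reached down to 3.04, 3.07 and 2.95, near the filter. A second, dimmer probe set of SEM1 differed by -0.09 (SE 0.17), whereas that of ECHDC2 stood at 0.89 (SE 0.21), close to the first.

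The same contrast, septum minus free wall, was also measured in control pigs, on other arrays. Control values did not enter the paced difference by which these 30 genes were ranked, but the control arrays share in its SE and p and in the filter on dim probe sets. The regional difference of control pigs had the same sign as in paced pigs for 26 of 30, and for 58.1% of all named genes tested. All 15 of the higher genes were also higher in control septum, and 11 of the 15 lower genes were lower. Of the 30, 7 had the same sign and an unadjusted limma p under 0.05 in control pigs, against 3.12% of all named genes in both directions. XDH stood at 1.83 (SE 0.89) in control pigs, PRLR at 1.34 (SE 0.48) and CISH at 0.80 (SE 0.37). RNF144B stood there at 0.60 (SE 0.24), KCNA5 at 0.58 (SE 0.20) and SOCS2 at 0.57 (SE 0.17). Each was smaller than in paced pigs. Choosing genes by a large paced difference makes smaller control values likely by itself, so no enlargement by pacing can be read from this. XDH read 8.42, 7.70 and 6.12 in control septum and 7.77, 5.51 and 3.48 in control free wall, so the control regions overlapped. Within arrays of the same number XDH was higher in control septum by 0.65, 2.19 and 2.64, and PRLR by 0.38, 1.31 and 2.34. PRLR was at 6.53 to 6.64 in control septum and at 6.26, 5.32 and 4.19 in control free wall. Same-numbered control arrays deviated together in these data, though the labels do not pair them. With the number as a block 13 of the 30 had the same sign and an unadjusted limma p under 0.05, against 3.22% of all named genes. The block was chosen from these same data, so the rise from 7 to 13 is no separate evidence. In control pigs, too, 0 of 20668 probe sets were called (0% called, smallest adjusted p 0.133, 758, or 3.67%, at an unadjusted p under 0.05).

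**Figure D3:**
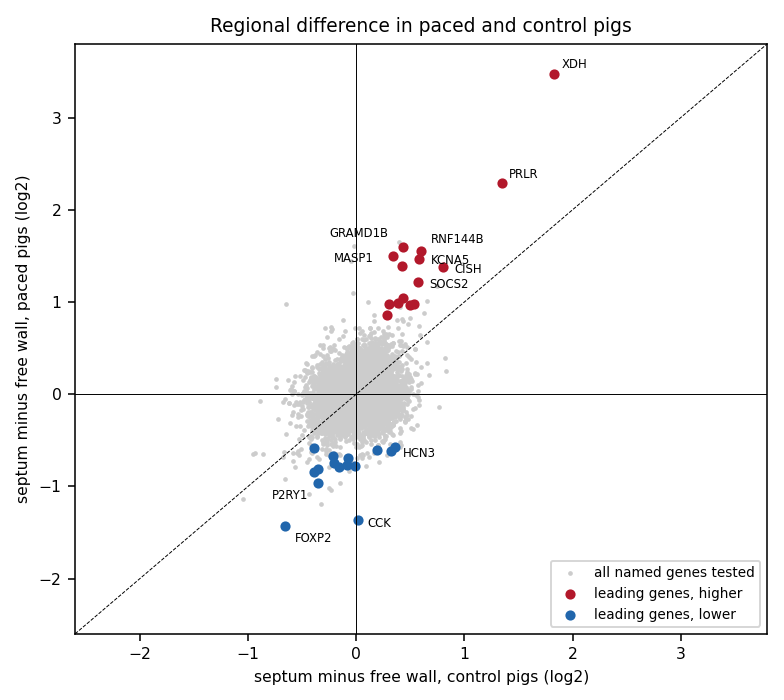
Log2 difference, septum minus free wall, of each named gene tested in control pigs (horizontal) and paced pigs (vertical); red and blue points are the 15 leading genes in each direction, grey points the other genes, and the dashed line marks equal differences. XDH at 1.83 and 3.47 and PRLR at 1.34 and 2.29 lie far out in both, while CCK lies at 0.01 in control pigs.

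A different pattern was seen for CCK, ABCC4 and HCN3, whose regions differed little or the other way in control pigs. CCK read 10.20, 10.81 and 10.86 in control septum and 10.22, 10.73 and 10.88 in control free wall, a difference of 0.01 (SE 0.22). The 3 septal paced arrays were the lowest of the 12. ABCC4 lay between 6.06 and 6.22 in all 6 control arrays, and its 3 free wall paced arrays were the highest of the 12. HCN3 stood at 0.32 (SE 0.19) in control pigs, and ADAMTS15 and CAPN6 at 0.36 and 0.19. The test of the difference between paced and control pigs was 0 of 20668 called (0% called, smallest adjusted p 0.999, 569, or 2.75%, at an unadjusted p under 0.05), and CCK at -1.37 (SE 0.32), HCN3 at -0.93 (SE 0.27) and ABCC4 at -0.62 (SE 0.15) each had a limma adjusted p of 0.999. No gene is thus shown to differ by region in paced pigs alone, and the arrays do not show that the regional differences are alike.

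**Figure D4:**
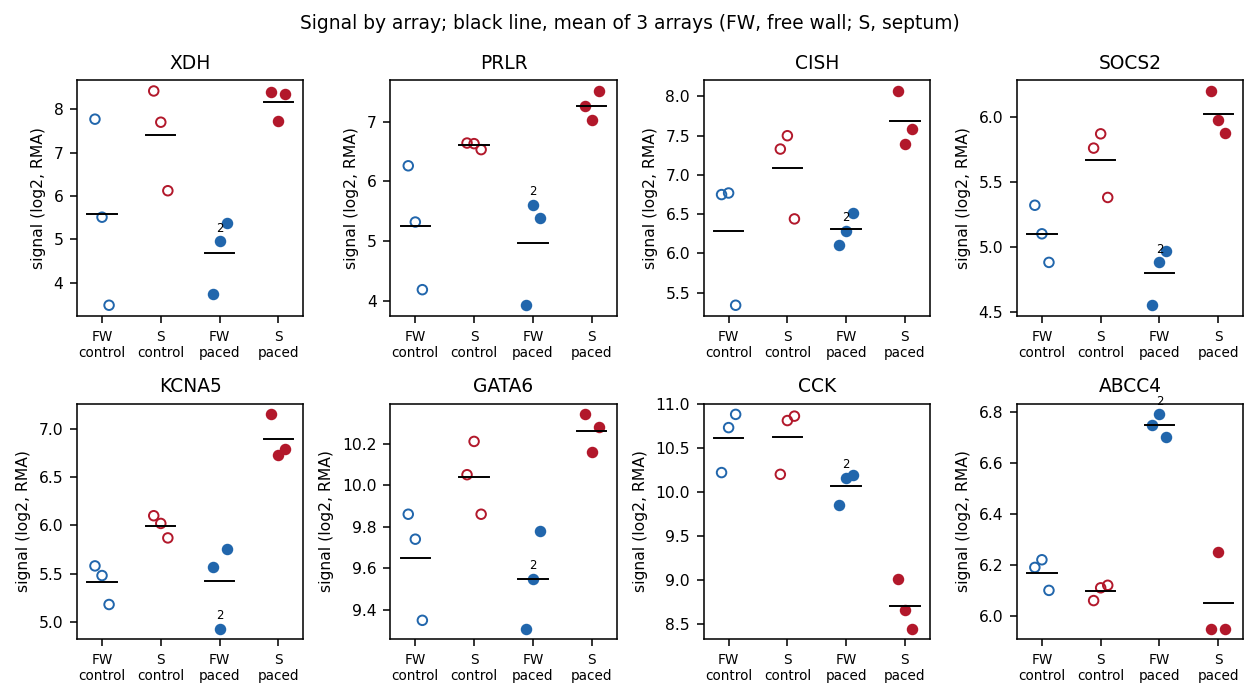
Log2 signal of 8 genes (panels) in free wall (FW, blue) and septum (S, red) of control (open) and paced (filled) pigs; each point is an array, the line the mean of 3, and 2 marks free wall paced array 2. In the XDH, PRLR, CISH, SOCS2, KCNA5 and GATA6 panels the septal mean is the higher in both treatments, and CCK and ABCC4 are close between the control regions.

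Gene lists were described by counts of members and by their median, beside the named genes tested as a whole. Of those, 53.7% were above 0 with a median of 0.02, and an unadjusted p under 0.05 was reached by 4.8% on the higher and 2.09% on the lower side. The regions did not overlap at 7.24% on the higher and 3.22% on the lower side. At the adjusted p, 0 members of any list were called.

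Genes of the Z-disc and costamere, which anchor the contractile filaments and link them to the membrane, had 5 of 18 members at an unadjusted p under 0.05, each higher in septum, and a median of 0.12. Of the 18, 11 were above 0 and 7 below. The lower ones included PDLIM3 at -0.83 (SE 0.49), with overlap, and DMD at -0.18 (SE 0.10), without overlap. FHL2, a Z-disc adaptor protein, read 9.03, 8.53 and 8.70 in septum and 8.19, 8.15 and 8.24 in free wall (log2 0.56, SE 0.15, limma adjusted p = 0.456). The stretch-sensor protein gene CSRP3 read 11.25, 11.30 and 11.22 against 10.79, 10.90 and 10.90 (log2 0.39, SE 0.13). LDB3, a Z-disc scaffold, stood at 0.51 (SE 0.17), SGCA of the dystrophin complex at 0.43 (SE 0.12) and the integrin linker TLN2 at 0.36 (SE 0.12). In control pigs FHL2 stood at 0.01, CSRP3 at 0.10, TLN2 at 0.11, LDB3 at 0.16 and SGCA at 0.23. There 13 of the 18 were above 0 (median 0.085), against 51.4% of all named genes. Without free wall paced array 2, 5 members again had an unadjusted p under 0.05 in paced pigs, and the median was 0.15. Among 17 sarcomere genes 12 were above 0 (median 0.07), with MYOM2, a protein of the M-band, at 0.51 (SE 0.16) and the myosin-binding protein gene MYBPC3 at 0.28 (SE 0.12). In control pigs MYOM2 stood at 0.47 and MYBPC3 at 0.27, and 13 of the 17 were above 0 (median 0.08). Of the thick filament and Z-disc proteins, MYH7 differed by 0.10 (SE 0.09), MYL2 by 0.11 (SE 0.10) and ACTN2 by 0.08 (SE 0.09). On the thin filament ACTC1 stood at -0.28 (SE 0.23) and the tropomyosin gene TPM1 at -0.21 (SE 0.11), both lower in septum without overlap, and NEB, the gene of nebulin, stood at -0.64 (SE 0.63). At the intercalated disc, where cells are joined, JUP, the gene of plakoglobin, stood at 0.44 (SE 0.13) and its relative CTNNB1 at 0.25 (SE 0.11), while the connexin gene GJA1 stood at -0.17 (SE 0.16). The median of the 14 disc genes was -0.06, and 0.04 without free wall paced array 2.

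Genes read as signs of haemodynamic stress had a median of 0.20, with 11 of 16 above 0, and of 0.21 with 14 of 16 above 0 without free wall paced array 2. The natriuretic peptide gene NPPA read 7.02, 7.12 and 7.18 in septum and 7.66, 6.38 and 5.31 in free wall, so that the free wall arrays lay on both sides of the septal ones (log2 0.66, SE 0.84, limma adjusted p = 0.937). NPPB stood at 0.24 (SE 0.32) and the skeletal actin gene ACTA1 at 0.14 (SE 0.19). CSRP3 alone of the 16 had an unadjusted p under 0.05 with all arrays. Without free wall paced array 2 the natriuretic peptide receptor gene NPR3 had one too. It was lower in septum, at -0.47 against -0.21 (SE 0.24) with all arrays. The regions did not overlap for 3 on the higher side, CSRP3, MYH7 and XIRP1, an actin-binding protein of the intercalated disc at 0.76 (SE 0.37), and for 1 on the lower side, the cardiac actin gene ACTC1.

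Among transcription factors that pattern the heart chambers, GATA6 and HAND2 had higher signals in septum, without overlap, and no others reached an unadjusted p under 0.05. GATA6, a zinc finger factor of heart development, read 10.34, 10.16 and 10.28 in septum and 9.31, 9.55 and 9.78 in free wall (log2 0.71, SE 0.16, limma adjusted p = 0.439). HAND2, a factor of right ventricle formation, read 6.86, 7.0 and 6.74 against 6.53, 6.55 and 6.41 (log2 0.37, SE 0.12, adjusted p = 0.582). In control pigs these stood at 0.39 and 0.23. NKX2-5 stood at 0.41 (SE 0.19), with groups that overlapped, and the ventricular factor IRX4 at -0.31 (SE 0.18). TBX5, which is graded across the ventricles in development, stood at -0.17 (SE 0.11). In all, 2 of 25 genes had an unadjusted p under 0.05, and the list median was 0.05. Without free wall paced array 2 the count was 3, with NKX2-5 added at 0.55, and the median was 0.01. IRX1, IRX2 and HAND1 were not among the genes tested. Markers of the conduction system, whose bundle branches lie in the septum, did not stand out: 5 of 14 were above 0, 0 had an unadjusted p under 0.05, HCN4 differed by -0.20 (SE 0.19) and the connexin gene GJA5 by 0.38 (SE 0.31).

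Of 23 ion channel genes tested, 11 were above 0, against 16 without free wall paced array 2 and 18 in control pigs, and KCNA5, KCNA4 and HCN3 had an unadjusted p under 0.05. KCNA4, a channel of the transient outward current, read 5.84, 5.07 and 6.46 in septum and 4.17, 5.08 and 5.09 in free wall (log2 1.01, SE 0.34), with overlap. KCNK3, a background potassium channel, stood at 0.34 (SE 0.22), and at 0.65 without free wall paced array 2. KCNIP2, an accessory subunit of the transient outward current, stood at 0.18 (SE 0.11). In calcium handling, 6 of 15 were above 0. The plasma membrane calcium pump gene ATP2B4 stood at 0.36 (SE 0.11) and the L-type channel gene CACNA1C at 0.29 (SE 0.12), while PLN, the brake on the calcium pump of the sarcoplasmic reticulum, stood at -0.16 (SE 0.11). In control pigs ATP2B4 stood at 0.07, CACNA1C at 0.30 and PLN at -0.08.

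Neurohormonal genes had 4 of 32 members lower in septum at an unadjusted p under 0.05, CCK, ADRA1B, CCKBR and ADRA1D, and 1 higher, PDE4B. The cholecystokinin receptor gene CCKBR had a difference of -0.34 (SE 0.14), and of -0.20 without free wall paced array 2, with septal signals of 2.88 to 3.11 near the filter. ADRA1D, another alpha-adrenergic receptor, stood at -0.30 (SE 0.12). Among growth factors, FGF16, a fibroblast growth factor of heart muscle, read 4.27, 4.66 and 4.22 in septum and 3.55, 3.99 and 3.62 in free wall (log2 0.66, SE 0.16, limma adjusted p = 0.452). Its groups did not overlap, and it stood at 0.14 in control pigs. The receptor gene FGFR1 stood at 0.37 (SE 0.11), IGF1 at -0.71 (SE 0.30) and FGF9 at -0.53 (SE 0.23). In control pigs FGFR1 stood at 0.11, IGF1 at -0.44 and FGF9 at -0.21.

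Matrix lists had medians below 0. Of 40 collagens and other matrix proteins 15 were above 0 (median -0.04, and 18 above 0 without free wall paced array 2). The regions did not overlap for 4 on the higher side and 1 on the lower side, DCN, and the 2 with an unadjusted p under 0.05 were the basement membrane chains COL4A1 at 0.26 (SE 0.09) and COL4A2 at 0.23 (SE 0.10). COL4A1 stood at 0.28 and COL4A2 at 0.18 in control pigs. COL1A1 differed by 0.04 (SE 0.29) and COL3A1 by -0.21 (SE 0.49). Of 32 matrix enzymes and inhibitors 9 were above 0 (median -0.10). The regions did not overlap for 7 of the 32 on the lower side, among them MMP16, ADAMTS15 and the membrane protease ADAM10 at -0.35 (SE 0.14). On the other side stood the membrane-type protease MMP15 at 0.35 (SE 0.13) and the protease inhibitor TIMP3 at 0.53 (SE 0.23). The mean signal of ADAM10 over the 12 arrays was 3.02, near the filter. Fibroblast markers were above 0 for 4 of 13 (median -0.18, and -0.04 without free wall paced array 2), with DCN at -0.31 (SE 0.18).

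In glucose use, 13 of 20 genes were above 0 (median 0.13), and the members with small p went both ways. Glycogen phosphorylase PYGM read 10.14, 9.73 and 9.91 in septum and 9.51, 9.60 and 9.44 in free wall (log2 0.41, SE 0.12, limma adjusted p = 0.551), and glycogen synthase GYS1 stood at 0.52 (SE 0.18). GPI and PKM, of the glycolytic chain, stood at 0.36 (SE 0.15) and 0.25 (SE 0.11). The lactate dehydrogenase gene LDHA stood at -0.52 (SE 0.19), and ALDOC, an aldolase, at -0.47 (SE 0.20). Fatty acid genes were above 0 for 15 of 23 (median 0.15), with ACADS, of short-chain oxidation, at 0.35 (SE 0.11), the triglyceride lipases LPL at 0.29 (SE 0.12) and PNPLA2 at 0.55 (SE 0.24). Fatty acid genes at an unadjusted p under 0.05 went from 3 to 1, ACADS, without free wall paced array 2. Glucose genes at that level went from 4 higher and 2 lower to 2 and 1. The 23 genes of the respiratory chain had a median of -0.03, with 0 on the higher and 1 on the lower side at an unadjusted p under 0.05. FOXO1, a transcription factor of fasting and muscle atrophy, read 4.24, 4.31 and 3.73 in septum and 3.17, 3.57 and 3.59 in free wall (log2 0.65, SE 0.18), and 4 of 23 genes of proteolysis and autophagy were higher at an unadjusted p under 0.05. Small heat shock protein genes HSPB2 at 0.49 (SE 0.12) and HSPB8 at 0.39 (SE 0.13) were the 2 of 27 chaperones at that level. Leaving out free wall paced array 2 gave 2 higher and 3 lower chaperones.

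Signalling and housekeeping lists had few members with a small p. Of 33 genes of the TGF-beta and BMP pathway 19 were above 0 (median 0.04), and 16 (median -0.01) without free wall paced array 2. MSTN, the gene of myostatin, which limits muscle growth, stood at 1.17 (SE 0.52), and the BMP mediator SMAD9 at -0.43 (SE 0.15). Of 30 WNT pathway genes 18 were above 0 (median 0.02), with the coreceptor gene LRP5 at 0.51 (SE 0.16). Of 12 Notch genes 10 were above 0 (median 0.09), against 8 without free wall paced array 2 and 3 in control pigs, and 0 had an unadjusted p under 0.05. Among 34 axon guidance genes (median 0.05) the membrane ligand EFNB1 stood at 0.39 (SE 0.12) and the neural adhesion gene CNTN1 at -0.74 (SE 0.26). The mean signal of CNTN1 over the 12 arrays was 3.21, near the filter. Ribosomal protein genes were above 0 for 17 of 22 (median 0.08), led by RPL30 at 0.35 (SE 0.11). The median of 16 circadian clock genes was 0.01, and -0.11 without free wall paced array 2, and that of 16 cell cycle genes was 0.05.

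Vascular endothelial markers were above 0 for 15 of 16 genes, with a median of 0.24, and free wall paced array 2 moved with this. The mean of the list per array, relative to the mean of all arrays, was 0.31, -0.01 and 0.16 in septum and -0.07, -0.34 and 0.11 in free wall, with array 2 the lowest. Without that array 12 of 16 were above 0 (54.3% of all named genes), the median was 0.13, and the members at an unadjusted p under 0.05 went from 3 to 1. These 3 were SEMA3G, an endothelial semaphorin, at 0.48 (SE 0.14), VWF, the von Willebrand factor gene, at 0.34 (SE 0.15) and the junction protein gene ESAM at 0.43 (SE 0.19). PECAM1 read 6.88 in free wall array 2 and 7.51 to 7.75 in the other 5 arrays. In bulk tissue, fewer cells of a type and less RNA per cell cannot be told apart. Immediate-early genes followed the same array: 14 of 18 were above 0 (median 0.24) with all arrays and 10 of 18 (median 0.15) without it, and its mean was -0.47 against 0.05 to 0.18 in the other 5. JUN at 0.41 (SE 0.15) and GADD45G at 0.41 (SE 0.15), both stress-induced, stood at 0.41 and 0.40 without it. The nuclear receptor genes NR4A3 and NR4A2 went from 0.60 and -0.39 to -0.80 and -0.87, and the stress-induced factor ATF3 from 0.42 to -0.61. Thus 2 members were higher and 2 lower at an unadjusted p under 0.05 without that array. Of the 18 immediate-early genes, 16 were above 0 in control pigs (median 0.22), against 51.4% of all named genes.

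Macrophage and monocyte markers were above 0 for 13 of 16 (median 0.12, and 0.08 without array 2), with the smallest p for the complement gene C1QA at 0.35 (SE 0.13); in control pigs 5 of 16 were above 0, against 51.4% of all named genes. Interferon-stimulated genes had a median of 0.06 with all arrays and of -0.09 without array 2, with 0 at an unadjusted p under 0.05 in each. Their list means spread widely within a region, from -0.38 to 0.18 in septum and from -0.38 to 0.22 in free wall. Among chemokines and cytokines, CCL14 stood at 1.0 (SE 0.37) and IL15 at 0.68 (SE 0.26), and free wall array 2 was the lowest for both, at 3.28 and 3.01. Without it they stood at 0.49 and 0.38.

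Working cardiomyocyte markers were above 0 for 9 of 14 (median 0.09), and 4 of them, FHL2, LDB3, CSRP3 and MYBPC3, were higher at an unadjusted p under 0.05. The first 3 of these are also in the Z-disc list. Without free wall paced array 2 the count was 5 higher and 1 lower. The list means were 0.14, 0.03 and 0.07 in septum and -0.13, 0.03 and -0.08 in free wall. In control pigs 13 of 14 of these markers were above 0 (median 0.08), against 51.4% of all named genes. Markers of the epicardium, which covers the free wall but not the septum, did not show that layer: 8 of 9 tested were above 0 (median 0.12). WT1 alone was below 0, at -0.20 (SE 0.16), and MSLN and UPK3B were not among the genes tested. Without free wall paced array 2, 6 of 9 were above 0 (median 0.17). KRT8 at 0.49 and the dim LRRN4 at 0.65 then had an unadjusted p under 0.05. Atrial markers had 11 of 14 above 0 (median 0.15) and 1 at an unadjusted p under 0.05, KCNA5. Among smooth muscle and pericyte markers the contractile protein gene CNN1 stood at -0.68 (SE 0.27), and the median of the 15 was 0.03. The activated fibroblast, endocardial, adipocyte, lymphocyte, Schwann cell, skeletal muscle, cartilage and erythroid lists had medians from -0.15 to -0.01 and 0 members at an unadjusted p under 0.05, and cartilage markers had a median of 0.16 without free wall paced array 2. The part of cell composition and of array 2 in the differences above was not tested beyond leaving that array out.

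**Figure D5:**
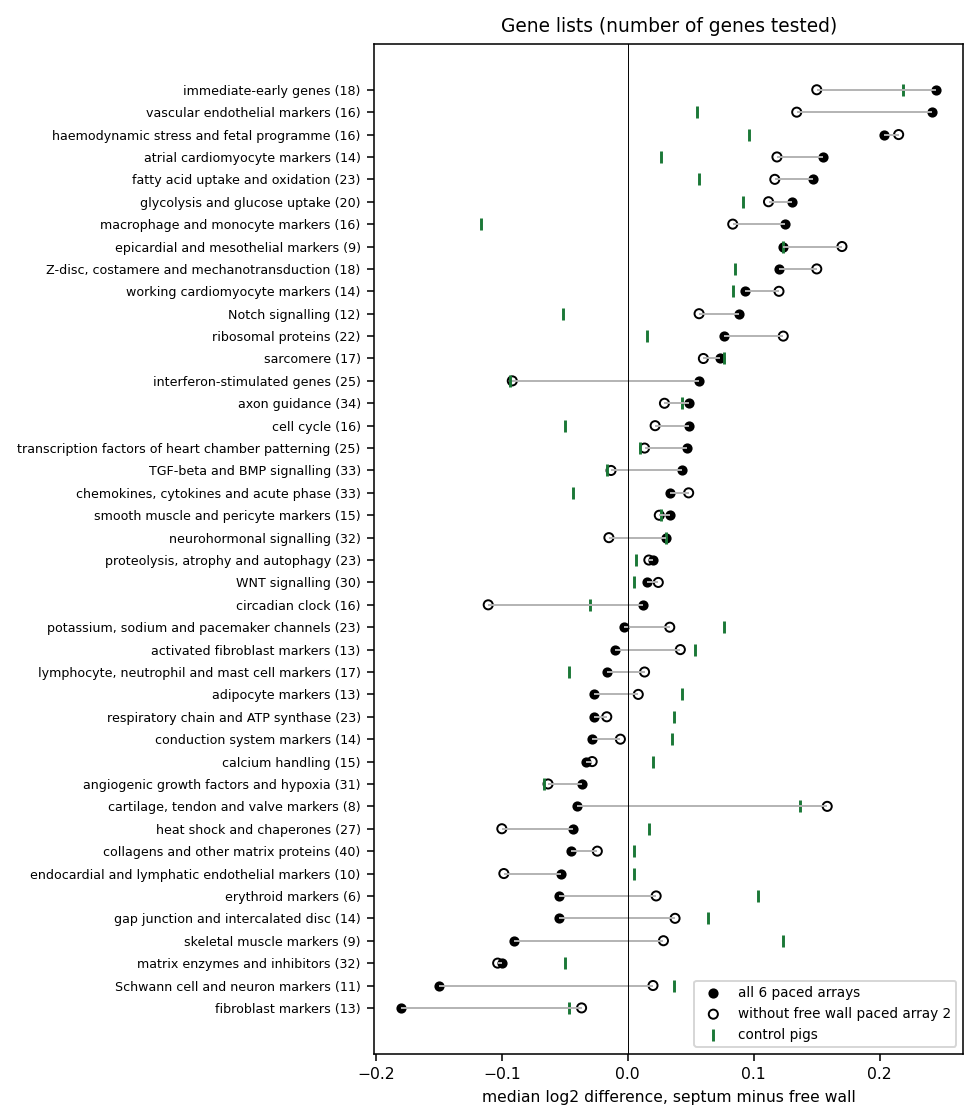
Median log2 difference, septum minus free wall, of each of the 42 gene lists, with the number of genes tested in brackets; filled circles use all 6 paced arrays, open circles leave out free wall paced array 2, and green ticks are control pigs. Medians in paced pigs run from -0.18 for fibroblast markers to 0.24 for immediate-early genes, and several change sign without array 2.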

How the data were processed

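Total RNA was labelled with biotin and hybridised to arrays of 1 colour. The authors deposited log2 signals per probe set, for which the submitters' processing notes name RMA and Expression Console 1.4; RMA corrects background, normalises quantiles and summarises probe sets. The build is not given in the sources used here, so no coordinates are printed. Of 27558 probe sets, 13323 had 1 gene symbol, 357 several and 13878 none in the platform table; 7 symbols were updated through a RefSeq gene table.

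Probe sets whose mean over the 12 arrays was above the 25th percentile (log2 value 3) were tested (20668). Group means of all 4 groups of 3 entered 1 linear model in limma 3.58.1, run under R 4.3.3 (8 residual and 3.68 prior degrees of freedom), two-sided, with Benjamini-Hochberg adjustment. SE is that of the log2 difference. A gene was taken by its brightest probe set. Same-numbered control arrays paired by these data (correlations of deviations 0.32, 0.25 and 0.24), not by the labels; paced ones did not. Arrays have no count depth; their number limits precision.

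The leading genes are, per direction, the 15 largest differences at an adjusted p under 0.05, then at an unadjusted p under 0.01 with regions that do not overlap (128 higher and 36 lower qualified); uncharacterised loci gave up their place. A set of 16 genes, of which 12 were tested, was named whatever its values, and up to 4 members with the smallest p per list. The 42 lists held 1174 genes, 819 matched on the array. Comparison, lists and rules were chosen with earlier results of these data known. The code was tested on simulated data: of 100 probe sets changed 2-fold it recovered 69, of 100 changed 4-fold 99, with 8 false calls among 20668. Figures were drawn with matplotlib 3.10.9. Alternatives were other filters, scalings, priors, array weights, blocks by array number, 1 treatment only, and leaving out each of the 12 arrays.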

Additional observations from a re-analysis of the deposited data

How the results depend on the processing

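The count of 0 probe sets called in paced pigs held under no filter or a filter at the 50th percentile, centring, repeated quantile normalisation, array weights, a trended robust prior, an adjusted p under 0.1 and the 6 paced arrays alone, with smallest adjusted p-values from 0.0817 to 0.318 in these. It was 4 with 1 probe set per gene, and 0 when free wall paced array 2 was also left out, an alternative chosen after seeing the data. Leaving out single arrays gave 0 to 7. The 7 came without septum paced array 2, and among them were SYT14, NTRK2, ABCC4 and both probe sets of ECHDC2. The counts for control pigs and for the difference between paced and control pigs were 0 under every alternative run. Array numbers did not pair the paced regions (correlations of same-numbered deviations 0.09, -0.17 and -0.18), where 3 pairs of different numbers had correlations of 0.42, 0.48 and 0.41; with the number as a replicate block the count was 1 (RNF144B, adjusted p 0.0414) as a fixed term and 0 as a random effect. Each of the 30 leading genes kept its direction in all settings. They were chosen with regions that do not overlap, so leaving out an array could not turn them, and this is no separate evidence. ACTA1, at 0.14, turned to -0.075 without free wall paced array 3 and to -0.04 without septum paced array 2, within a range of -0.075 to 0.26 over the arrays left out. COL1A1, at 0.04, turned to -0.17 without free wall paced array 3, within a range of -0.17 to 0.28. List medians moved by more than the spread between arrays in 24 comparisons and by less in 396.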

Other observations

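Genes outside the naming rule, chosen after their values were seen, add to the regional picture. LOC100737875, an uncharacterised locus, was lower in septum by nearly the same amount in both treatments: it read 4.15, 4.23 and 4.16 in paced septum against 5.10, 5.37 and 5.47 in paced free wall, and 4.44, 4.29 and 4.86 in control septum against 5.78, 5.28 and 5.66 in control free wall. Its log2 differences were -1.13 and -1.04 (SE 0.17, limma adjusted p = 0.142 and 0.657 over all probe sets). In both treatments the regions did not overlap. PDIA2, a protein disulfide isomerase, read 5.73 to 5.82 in paced septum and 4.87 to 5.02 in paced free wall (log2 0.83, SE 0.14), and stood at 0.49 in control pigs. CCNY, an atypical cyclin, stood at 0.66 (SE 0.12), and IL4R, the interleukin 4 receptor, at 0.81 (SE 0.15).

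Septum paced array 2 differed from its group in single genes. SYT14, of the synaptotagmin family, read 5.44 and 5.2 in septum paced arrays 1 and 3 and 2.55 in array 2, while the free wall paced arrays read 2.31, 2.82 and 3.25 and the control arrays 2.26 to 2.60. NTRK2, a neurotrophin receptor, read 4.34 and 4.15 in septum paced arrays 1 and 3 and 5.83 in array 2, against 5.64 to 6.29 in paced free wall.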
